A study of Mus musculus with 8 samples.

Results

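The histone deacetylases of classes I and II were examined as transcripts in T cells that carried either a normal or a SUMOylation-defective form of ROR-γt, the transcription factor that directs the Th17 program and the IL-17 genes. The members were the rows of the normalized count table whose symbol was Hdac1, Hdac2, Hdac3, Hdac4, Hdac5, Hdac6, Hdac7, Hdac8, Hdac9 or Hdac10. All 10 were listed among 22829 genes, and all 10 passed the filter on low values, a mean normalized count of at least 10 over the 8 samples, which left 16982 genes tested. Both groups were Th17 cells derived from ROR-γt-/- mice and therefore lacked the endogenous protein. The WT group (4 samples) was reconstituted with WT-ROR-γt, and the K187R group (4 samples) with K187R-ROR-γt, in which the lysine that takes the SUMO modifier is replaced by arginine. The methods describe CD4+ T cells purified from spleen, transduced with lentivirus and cultured under Th17 polarizing conditions, whereas the deposited design text speaks of WT and mutant mice. The age of the animals, the promoter of the vector and the sharing of animals or cultures between samples were not given in the sources used here. The p-values therefore measure the spread between these samples, which may be technical.

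Histone deacetylases remove acetyl groups from lysines of histone tails and of other proteins, and are mostly associated with compaction of chromatin and lower transcription. The class I enzymes Hdac1, Hdac2, Hdac3 and Hdac8 are largely nuclear, and all except Hdac8 act inside large corepressor complexes that transcription factors bring to DNA. The class IIa members Hdac4, Hdac5, Hdac7 and Hdac9 have weak catalytic activity of their own, bind MEF2 factors and leave the nucleus when kinases phosphorylate them. Hdac6 and Hdac10, of class IIb, are mainly cytoplasmic and act on tubulin and on polyamines, respectively. The study examined Hdac2 as a partner of ROR-γt, so the question for the transcripts was whether the level of Hdac2 or of any relative differed between the WT and K187R groups. RNA counts measure neither the binding of these proteins nor their activity.

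The libraries held 52456804 to 74676721 reads on genes, and 3 reads corresponded to 2.54 to 3.56 normalized counts, where a normalized count is the number of reads divided by the size factor of the sample. All 8 markers of CD4 T cells were present, with summed levels of 152884 to 191995 normalized counts. The Th17 cytokine genes Il17a and Il17f lay between 2087 and 6075 and between 10238 and 24917 normalized counts. The 6 myeloid markers were present as well, summing to 20894 to 61673 in WT and 35580 to 64664 in K187R, with Lyz2 the largest of them at 17025 to 57778. The sum, Lyz2, Itgam and Cd68 were highest in replicate 4 of each group, whereas Csf1r and Cd14 were highest in WT replicate 2 and K187R replicate 3. Adgre1 was highest in WT replicate 4 and K187R replicate 3. The CD8 T cell markers summed to 387 to 1141 and the B cell markers to 262 to 1253, and the NK and erythroid lists stayed at sums of at most 30.5 and 61.3. Clustering without the members put the samples in 3 sets that cut across the groups. The first held WT replicates 1 and 3 with K187R replicate 1, the second WT replicate 2 with K187R replicates 2 and 3, and the third the replicates numbered 4. The second set had 13564 to 17373 normalized counts of Xist, the RNA of the inactive X chromosome, against 3.56 to 23.7 elsewhere. Because these are bulk samples, fewer cells of a type and less RNA per cell cannot be told apart.

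No member passed the test for a difference between K187R and WT. By limma on log2(normalized count + 1), 0 of the 10 passed an adjusted p-value of 0.05 (Benjamini-Hochberg over all genes tested), where 0% of all genes tested passed. At an unadjusted p under 0.05 the count was also 0 of 10, against 4.39% of all genes (746 genes). On the recovered reads, edgeR called 0 of 10 members and 0% of all genes, and DESeq2 called 0 of 10 members and 0.183% of all genes (31 genes). The WT and K187R ranges overlapped for every member, while they were separate for 2.46% of all genes. The log2 fold changes of the members, K187R minus WT, ran from -0.12 for Hdac6 to 0.18 for Hdac10, with 7 below 0 and 3 above. Their median was -0.046 and their median size without sign 0.079, beside -0.0062 and 0.115 for all genes tested. The smallest p-value that an exact two-sided permutation of 4 against 4 samples can give is 0.0286, and the members gave 0.286 to 0.914.

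**Figure D1:**
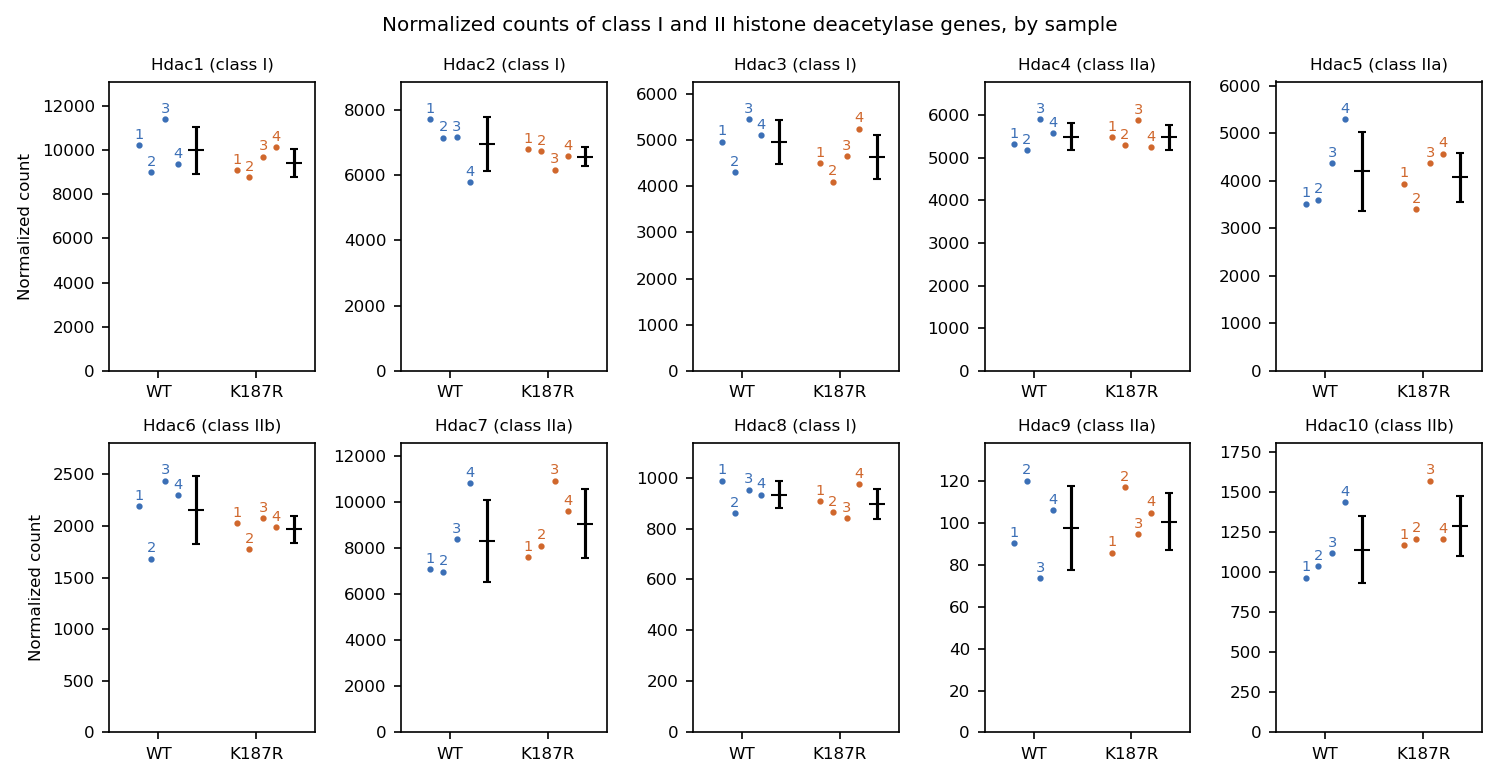
Normalized counts of the 10 members (y axis, from 0) in the 4 WT (blue) and 4 K187R (orange) samples, numbered by replicate, with the mean and SD of each group in black. The points of the WT and K187R groups overlap in every panel, from Hdac1 near 9703 normalized counts on average down to Hdac9 near 99.1.

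Hdac2, the deacetylase at the centre of the study, lies on the plus strand of chromosome 10 between 36974544 and 37001889 (GRCm38, GENCODE M21). Its normalized counts were 7715, 7155, 7169 and 5789 in WT replicates 1 to 4 and 6797, 6739, 6174 and 6579 in K187R replicates 1 to 4. The WT samples thus held both the highest and the lowest value, and all 4 K187R samples lay between them. The means were 6957 ± 821 in WT and 6572 ± 281 in K187R (SD, n = 4 each). On the log2 scale K187R differed from WT by -0.075 with a standard error of 0.093. The 95% interval of the difference was -17.8% to 9.68% for K187R relative to WT (limma, adjusted p = 0.928, Benjamini-Hochberg). The size depended on single samples: the log2 fold change was -0.16 without WT replicate 4 (unadjusted limma p of 0.036, adjusted p of 0.375), -0.023 without WT replicate 1 and -0.045 without K187R replicate 3. Without the 3 samples of high Xist it was -0.033. Against WT replicate 4, K187R replicate 4 of the third set was 6579 normalized counts, 0.18 higher on the log2 scale, whereas K187R was lower by -0.13 and -0.15 in the first and second sets.

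Hdac1 is the closest relative of Hdac2 and is usually found beside it in the NuRD, SIN3 and CoREST complexes. The study also tested the HDAC1 protein, and reported that it bound WT-ROR-γt and K187R-ROR-γt to an equal degree. The Hdac1 gene is on the minus strand of chromosome 4, from 129516104 to 129542713. Hdac1 counted 10228, 8990, 11392 and 9357 in WT and 9075, 8757, 9697 and 10128 in K187R, so the highest sample was WT replicate 3 and the lowest K187R replicate 2. The log2 fold change was -0.082 (95% interval -0.28 to 0.12, limma, adjusted p = 0.924). Hdac1 reads are not fully separable from those of a processed pseudogene, Gm10093 on chromosome 17 (78491582 to 78493025), which aligned to the Hdac1 transcript with 99.4% identity over 1444 bases and held 9.82% to 11.5% of the reads of the pair. Summing the pair left the difference at -0.087, from 11244 ± 1207 in WT to 10554 ± 622 in K187R (SD, n = 4 each). Another processed pseudogene, Gm4864 on chromosome 12, aligned with 94.6% identity over 1469 bases and is also listed. Further copies that aligned are not listed: AC125456.1 on chromosome 18 (96.3% over 1450 bases) and Gm21834 on chromosome 17 (90.1% over 453 bases). Per kilobase of exon, Hdac1 stood 1.88 ± 0.24 times above Hdac2 in WT and 1.87 ± 0.18 times above it in K187R (SD, n = 4 each), and the ratio ranged from 1.63 to 2.10 over the 8 samples.

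Hdac3 and Hdac8 complete class I. Hdac3, the catalytic subunit of the NCoR and SMRT corepressor complexes, lies on chromosome 18 (37935844 to 37955016, minus strand). It ranged from 4311 to 5449 normalized counts in WT and from 4099 to 5245 in K187R, with a log2 fold change of -0.10 (95% interval -0.32 to 0.12). Hdac8 deacetylates the cohesin subunit Smc3 and lies on the X chromosome (102284639 to 102505359, minus strand). It was among the steadiest genes, with 860 to 987 normalized counts in WT and 840 to 974 in K187R. Its log2 fold change was -0.059 (95% interval -0.26 to 0.14), and its SD over the 8 samples was at percentile 7.82 of all genes tested. The adjusted limma p-values were 0.923 for Hdac3 and 0.937 for Hdac8.

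**Figure D2:**
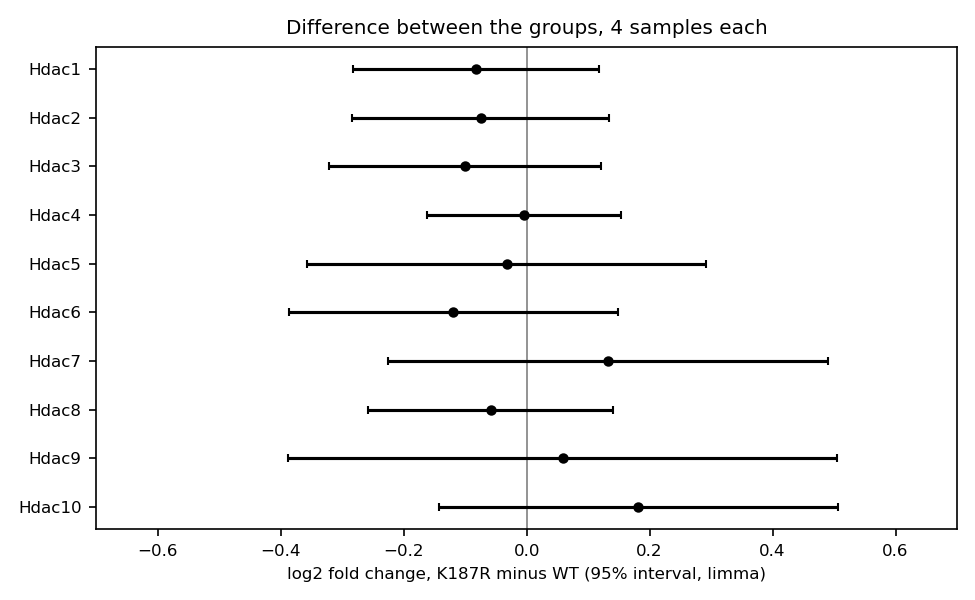
Log2 fold change of each member, K187R minus WT (points), with its 95% interval from limma (bars). Every interval includes 0, the narrowest being that of Hdac4 (-0.16 to 0.15) and the widest that of Hdac9 (-0.39 to 0.50).

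Class IIa held the steadiest member, Hdac4, and those of largest log2 SD over the 8 samples, Hdac7 (0.26) and Hdac9 (0.24). The high spread was not particular to this class, since Hdac10 of class IIb was at 0.23, above Hdac5 at 0.22. Hdac4 lies on chromosome 1 (91928779 to 92195699, minus strand) and counted 5177 to 5900 in WT and 5245 to 5876 in K187R. The means of 5490 ± 318 and 5473 ± 286 (SD, n = 4 each) differed by -0.0042 on the log2 scale, and the 95% interval was -10.6% to 11.2%. The SD of Hdac4 over the 8 samples was at percentile 4.15 of all genes tested. A noncoding gene on the other strand overlaps 22.4% of its exonic bases, and since no strand setting of the counting was stated, reads there cannot be assigned to Hdac4 with certainty.

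Hdac7 is a class IIa enzyme known for its high expression in thymocytes and its part in T cell development, and lies on chromosome 15 (97792664 to 97844502, minus strand). It counted 7112, 6997, 8391 and 10825 in WT and 7623, 8123, 10943 and 9638 in K187R. The highest samples were K187R replicate 3 and WT replicate 4, one from each group, and the log2 fold change was 0.13 (95% interval -0.23 to 0.49, limma, adjusted p = 0.928). The difference was 0.43 in the second set, -0.019 in the first and -0.17 in the third. Without the 3 samples of high Xist it was -0.012, and with 1 sample left out it ranged from 0.038 without K187R replicate 3 to 0.27 without WT replicate 4.

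Hdac5, which like Hdac7 is exported from the nucleus on phosphorylation, lies on chromosome 11 (102194432 to 102230166, minus strand). It counted 3520, 3601, 4371 and 5293 in WT and 3938, 3402, 4375 and 4573 in K187R, highest in replicate 4 of each group. The log2 fold change was -0.032 (95% interval -0.36 to 0.29), and it ranged from -0.11 without WT replicate 1 to 0.086 without WT replicate 4. Hdac5 and Hdac7 were thus both above their own mean in the replicates numbered 4. This was not particular to them, since Hdac3, Hdac8, Hdac9 and Hdac10 were also above their means in both samples. Hdac2 was below its mean in both, and Hdac1, Hdac4 and Hdac6 lay on different sides in WT and K187R. In the replicates numbered 4 the 6 myeloid markers summed to 61673 in WT and 64664 in K187R, against 20894 to 49938 in the other samples. Lyz2 made up most of these sums (54522 and 57778). Cd14 did not follow them, at 448 and 407 in the replicates numbered 4 against 376 to 1058 elsewhere. Csf1r was at 2598 and 2423 in the replicates numbered 4, against 1974 to 5074 elsewhere. In WT replicate 2 and K187R replicate 2, with myeloid sums of 49938 and 43815, Hdac5 and Hdac7 lay below their means. Their log2 deviations were -0.18 and -0.27 for Hdac5 and -0.30 and -0.080 for Hdac7. In K187R replicate 3, with a sum of 47482, Hdac5 and Hdac7 lay above their means, at 0.096 and 0.35. The part of myeloid cells in the Hdac5 and Hdac7 levels was not tested.

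Hdac9 had the lowest level of the 10 members. Its gene spans 869.5 kb of chromosome 12 (34047580 to 34917095, minus strand), and 76 to 125 reads fell on it per sample. The normalized counts were 90.3, 120, 73.6 and 106 in WT and 85.9, 117, 94.8 and 105 in K187R. Replicate 2 was the highest sample in each group, and the WT samples enclosed all 4 K187R samples. The log2 fold change was 0.058 (95% interval -0.39 to 0.50, limma, adjusted p = 0.975). Counting error alone gives a coefficient of variation of 9.99% at this depth, beside 16.1% observed over the 8 samples.

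In class IIb, Hdac6, the tubulin deacetylase, lies on the X chromosome (7930120 to 7947889, minus strand) and counted 2195, 1682, 2437 and 2295 in WT and 2027, 1773, 2077 and 1989 in K187R. WT replicate 2 was the lowest of all 8, and 3 of the 4 WT samples exceeded every K187R sample. The log2 fold change was -0.12 (95% interval -0.39 to 0.15, limma, adjusted p = 0.923). Single samples moved it both ways, to -0.23 without WT replicate 2 (unadjusted limma p of 0.028, adjusted p of 0.569), -0.055 without WT replicate 3 and -0.070 without K187R replicate 2. Without the 3 samples of high Xist it was -0.20, and with the sample set as a term -0.057.

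Hdac10, a polyamine deacetylase, lies on chromosome 15 (89123307 to 89128700, minus strand) and counted 966, 1038, 1119 and 1436 in WT and 1166, 1209, 1569 and 1206 in K187R. K187R replicate 3 was the highest sample and WT replicate 4 the next, and WT replicates 1 to 3 lay below all 4 K187R samples. The log2 fold change of 0.18 was the largest of the 10 members, and its 95% interval of -0.14 to 0.51 corresponds to -9.41% to 42.0% relative to WT (limma, adjusted p = 0.921). It was 0.30 without WT replicate 4 (unadjusted limma p of 0.038, adjusted p of 0.379), but 0.083 without K187R replicate 3, 0.11 without WT replicate 1 and 0.035 without the 3 samples of high Xist. Across the sets the difference was 0.17, 0.41 and -0.25.

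The levels of the 10 genes were compared with each other per kilobase of exon, since longer transcripts collect more reads. Hdac1 was highest at 2817 ± 251 normalized counts per kilobase (SD, n = 8), followed by Hdac2 at 1512 ± 135, Hdac7 at 1289 ± 234 and Hdac3 at 1182 ± 117. The ranges of Hdac2 and Hdac7 overlapped, with Hdac2 above in 6 of 8 samples, as did those of Hdac7 and Hdac3, with Hdac7 above in 5 of 8. A gap without overlap separated Hdac3 from Hdac5 at 471 ± 73.1, which exceeded Hdac10 in 8 of 8 samples although their ranges overlapped. Hdac10 (359 ± 59.1), Hdac6 (354 ± 43.4) and Hdac4 (347 ± 17.7) could not be ordered, each exceeding the next in 5 of 8 samples. On this length Hdac8 at 189 ± 11.6 lay below all of these, and Hdac9 at 6.76 ± 1.09 was far below Hdac8 in every sample. The median of all genes with a length was 252.7, so Hdac1 stood at percentile 94.2 of them and Hdac9 at percentile 6.35.

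**Figure D3:**
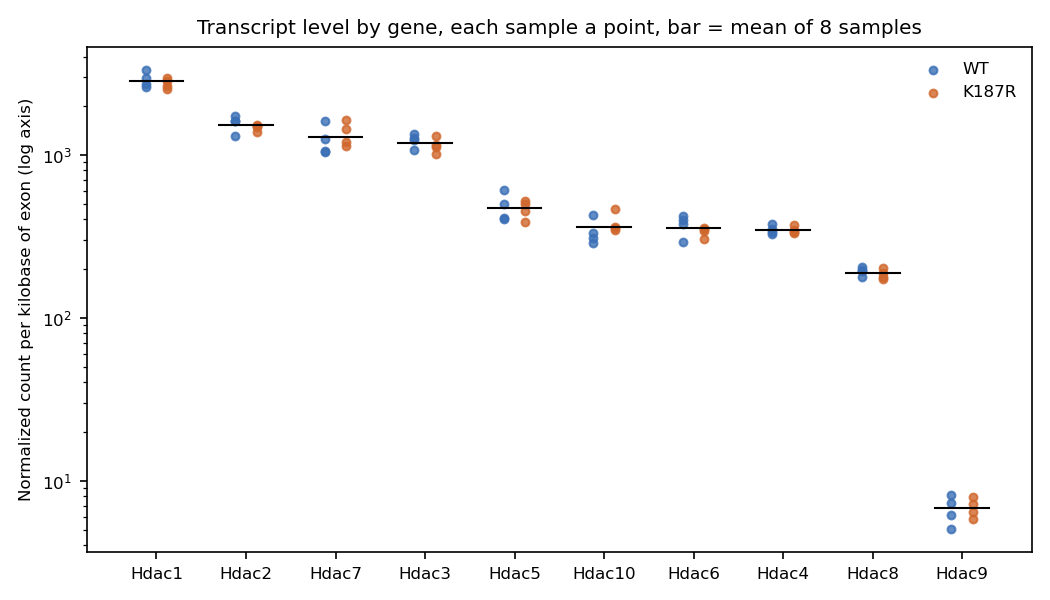
Normalized count per kilobase of union exon length (log axis) of each member, in descending order of the mean over 8 samples (bar), with WT samples in blue and K187R samples in orange. Hdac1, Hdac2, Hdac7 and Hdac3 form the upper group, all at 1011 per kilobase or more in every sample, and Hdac9 stands alone at 8.19 or less.

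The order depended on the length used. Per kilobase of coding sequence Hdac3 moved above Hdac7, and Hdac4, whose 15813 exonic bases hold a coding sequence of only 3228, moved from place 8 to place 5. Hdac8 moved from place 9 to place 7, at 809 per coding kilobase above Hdac10 at 608 and Hdac6 at 597. Hdac1, Hdac2 and Hdac9 kept places 1, 2 and 10 under both lengths. Of the summed level per kilobase of union exon, class I made up 68.0% ± 4.26 in WT and 65.8% ± 2.29 in K187R, class IIa 23.9% ± 3.53 and 25.6% ± 1.90, and class IIb 8.17% ± 0.76 and 8.55% ± 0.59 (SD, n = 4 each). The ranges of WT and K187R overlapped in each class.

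The start regions of 4 members are shown. They include that of Hdac2, the deacetylase at the centre of the study, and that of Hdac9, the member of lowest level. Those of Hdac7 and Hdac5, which were both high in WT replicate 4, are the others. RefSeq promoter windows (GRCm38.p6, 250 bases before to 50 after a start) were given for 7 of the 10 members, with 11 windows in all. The windows, read in the direction of the gene, are chr10:36974294-36974593 (plus strand) for Hdac2, chr15:97831718-97832017 (minus strand) for Hdac7, chr11:102230123-102230422 (minus strand) for Hdac5 and chr12:34528840-34529139 (minus strand) for Hdac9. Capitals mark each CG dinucleotide.
Hdac2: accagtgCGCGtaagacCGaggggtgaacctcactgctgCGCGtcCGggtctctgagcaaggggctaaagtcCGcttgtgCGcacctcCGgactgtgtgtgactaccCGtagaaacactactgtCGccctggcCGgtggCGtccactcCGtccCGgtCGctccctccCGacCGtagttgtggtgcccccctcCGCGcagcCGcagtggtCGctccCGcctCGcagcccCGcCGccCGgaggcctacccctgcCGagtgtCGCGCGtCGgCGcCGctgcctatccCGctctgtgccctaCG
Hdac7: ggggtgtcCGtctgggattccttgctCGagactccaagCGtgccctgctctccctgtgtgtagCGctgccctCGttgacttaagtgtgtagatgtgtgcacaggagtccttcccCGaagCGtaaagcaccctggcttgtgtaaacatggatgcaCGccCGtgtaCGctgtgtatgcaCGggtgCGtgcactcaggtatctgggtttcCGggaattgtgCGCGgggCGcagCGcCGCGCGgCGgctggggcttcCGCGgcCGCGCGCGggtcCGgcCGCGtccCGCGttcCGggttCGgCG
Hdac5: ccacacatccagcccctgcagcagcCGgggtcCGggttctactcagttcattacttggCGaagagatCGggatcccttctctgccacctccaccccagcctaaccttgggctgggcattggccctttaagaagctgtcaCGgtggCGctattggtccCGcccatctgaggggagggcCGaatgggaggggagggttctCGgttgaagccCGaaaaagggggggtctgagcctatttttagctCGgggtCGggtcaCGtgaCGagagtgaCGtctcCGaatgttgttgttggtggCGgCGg
Hdac9: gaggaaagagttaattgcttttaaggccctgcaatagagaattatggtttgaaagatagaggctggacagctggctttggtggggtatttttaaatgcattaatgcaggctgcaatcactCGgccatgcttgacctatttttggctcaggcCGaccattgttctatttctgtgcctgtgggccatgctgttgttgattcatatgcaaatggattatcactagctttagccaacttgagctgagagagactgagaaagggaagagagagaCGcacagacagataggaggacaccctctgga

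The Hdac2 window held 36 CG dinucleotides and the Hdac7 window 35, against a median of 7 over 32851 promoter windows of the same length, and Hdac5 held 18. The other Hdac7 windows held 31, 6 and 5. The printed Hdac9 window held 3, and a second Hdac9 window at a start farther upstream held 0. The start in the printed Hdac9 window lay 561 bases from that of the principal annotated transcript. The GC box GGGCGG, searched on both strands like the other motifs, occurred in 5 of the 11 windows (those of Hdac2, Hdac4, Hdac5 and Hdac6 and another window of Hdac7) and in 35.7% of all windows. CCAAT occurred in 4 of the 11 (Hdac4, Hdac5, Hdac6 and Hdac8) and in 37.4% of all. The nuclear receptor core motif AGGTCA, the sequence to which ROR proteins bind next to an A/T-rich stretch, occurred in 2 of the 11, the Hdac9 window printed above and another window of Hdac7, and in 16.3% of all. A match is only an occurrence of these letters, and no binding was measured here.

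The 10 genes followed different patterns over the samples. The smallest root mean square difference between centred log2 values over the 8 samples was that of Hdac1 and Hdac3 (0.068), and Hdac3 and Hdac8 lay on the same side of their means in 8 of 8 samples. Hdac7 was closest to Hdac10 (0.094, same side in 7 of 8) and close to Hdac5 (0.135, 7 of 8). Hdac2 lay mostly on the other side from these last genes. It shared its side with Hdac10 in 0 of 8 samples, with Hdac7 in 1 of 8 and with Hdac5 in 2 of 8. Some of these sides rest on deviations near 0. Hdac2 was at 0.012 and -0.00042 in K187R replicates 1 and 2, and Hdac10 at 0.011 and 0.0076 in K187R replicates 2 and 4. The pairs named were picked from all pairs of members. These are descriptions over 8 libraries, and all genes share the depth and the set of each library.

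**Figure D4:**
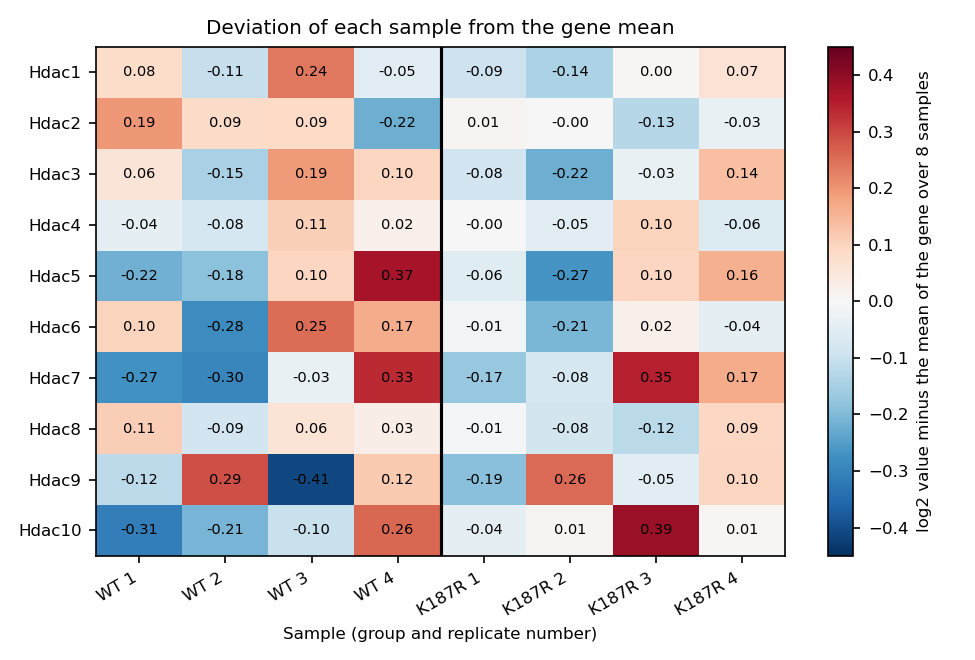
Log2 value of each member (rows) in each sample (columns, WT left and K187R right of the line) minus the mean of the gene over 8 samples, coloured from blue (lower) to red (higher). Hdac5 and Hdac7 are at 0.37 and 0.33 in WT replicate 4 where Hdac2 is at -0.22, and Hdac9 reaches -0.41 in WT replicate 3.

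The 5 tested genes whose pattern over the 8 samples was most like that of Hdac2 were Rnf168, a ubiquitin ligase of the DNA damage response (root mean square difference 0.017), Ppp2ca, the catalytic subunit of protein phosphatase 2A (0.022), the transport GTPase Rab1a (0.025), the transcription factor Atf1 (0.026) and the polyadenylation factor Nudt21 (0.027). For Hdac9, the member with the widest range (0.70 on the log2 scale, with Hdac10 at nearly the same range), the nearest were Cd84, Slfn10-ps, Gpcpd1, Alcam and Asah1, at 0.081 to 0.091.

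The genes with which these enzymes work were followed in 10 lists of complexes, kinases, partners and substrates, with 90 genes tested. None of the 90 passed limma, edgeR or DESeq2 at an adjusted p-value of 0.05, beside 0%, 0% and 0.183% of all genes. At an unadjusted limma p under 0.05 there were 4 of 90, against 4.39% of all genes, and the groups were separate for 5 of 90, against 2.46%. The values that follow describe the genes of smallest p in each list.

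Among the complexes around Hdac1 and Hdac2, all 12 tested NuRD genes, 15 SIN3 genes and 8 CoREST genes failed the test. Their median log2 fold changes were -0.030, -0.043 and -0.063. The chromatin remodeler Chd3 of NuRD had a log2 fold change of 0.17 and the histone chaperone Rbbp4, shared by NuRD and SIN3, one of -0.17. The median of all genes tested was -0.0062, so more of them lay below 0 than above it. No list was tested as a set. Of the SIN3 genes, 13 of 15 were below 0. The smallest p among them was that of Ing2, a reader of methylated histone H3, at 1322 ± 85.6 in WT and 1175 ± 49.5 normalized counts in K187R (SD, n = 4 each), with no overlap between the groups and an adjusted limma p of 0.921. Sap18 stood at 0.039. In CoREST the demethylase Kdm1a was at -0.11 and Rcor2 at 0.30.

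The mitotic deacetylase complex, MiDAC, had 3 genes tested. Trerf1, a zinc finger subunit, counted 2028 ± 159 in WT and 2680 ± 341 in K187R (SD, n = 4 each), and the lowest K187R sample (2355) exceeded the highest WT sample (2192). The log2 fold change was 0.40 with a standard error of 0.10 and an unadjusted limma p of 0.0039, which adjustment over all genes brought to 0.921. Its scaffold partner Dnttip1 was at -0.17.

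Over all genes tested the median log2 fold change was -0.0062 and the median size without sign 0.115. The 6 NCoR/SMRT genes, which act with Hdac3, were all above 0, with a median of 0.073, and the list was not tested as a set. Coro2a, a subunit of the NCoR complex, was the largest at 0.49 (1929 ± 513 in WT, 2653 ± 305 in K187R, SD, n = 4 each), with an unadjusted limma p of 0.022 and an adjusted p of 0.921, and its groups overlapped.

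The kinases that drive class IIa enzymes out of the nucleus had 11 tested genes with a median of 0.010. Sik1, a salt-inducible kinase, counted 1957 ± 255 in WT and 1464 ± 97.6 in K187R, and the highest K187R sample (1607) fell just short of the lowest WT sample (1621). Its log2 fold change was -0.41 (unadjusted limma p = 0.0036, adjusted p = 0.921, exact permutation p = 0.0286). Camk1d was at 0.18, with 3097 to 3318 in WT and 3336 to 4258 in K187R. Of the transcription factors and chaperones that hold class IIa enzymes, Mef2c was at 0.76 with a 95% interval of -0.20 to 1.72, and Mef2d at -0.17.

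Substrates and partners were listed for Hdac6, and cohesin genes with the cohesin acetyltransferases for Hdac8. Hdac10 had no list. The alpha-tubulin gene Tuba4a, whose product is a substrate of Hdac6, was at 0.29 (3949 to 4715 in WT, 4746 to 6606 in K187R, unadjusted limma p = 0.026, adjusted p = 0.921, exact permutation p = 0.0286), and the ubiquitin-binding protein gene Plaa at -0.14. The cohesin acetyltransferase gene Esco2 was at -0.34 with a 95% interval of -1.04 to 0.37, and Stag1 at 0.0022.

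The sirtuins of class III and Hdac11 of class IV completed the deacetylases, with 8 genes tested and none called. Hdac11 was low, at 41.6, 51.9, 52.4 and 52.3 normalized counts in WT and 46.3, 65.1, 81.1 and 61.3 in K187R. K187R was higher for each of the 4 replicate numbers, but K187R replicate 1 lay inside the WT range and the log2 fold change of 0.33 had a 95% interval of -0.16 to 0.82 (limma, adjusted p = 0.921, exact permutation p = 0.114). Hdac11 shares 17.9% of its exonic bases with genes on the other strand. Sirt5, a mitochondrial desuccinylase, was at 0.17 and Sirt4 at -0.16.

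**Figure D5:**
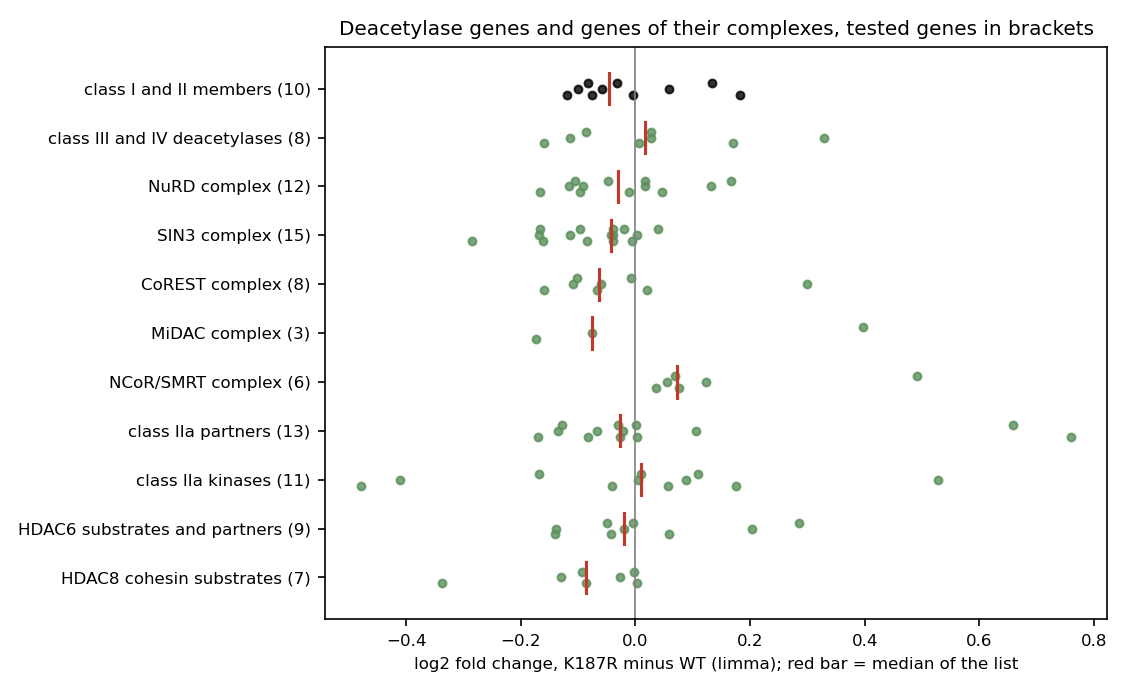
Log2 fold change, K187R minus WT, of the 10 members (black) and of the tested genes of each partner list (green, number of genes in brackets), with the median of the list as a red bar. The medians lie between -0.087 for the cohesin list and 0.073 for the NCoR/SMRT list, and no gene shown passed the adjusted threshold.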

How the data were processed

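RNA seq was available for 8 samples. Per the methods, the authors trimmed reads with Cutadapt, aligned them with HiSat2 to GRCm38, counted them with featureCounts on GENCODE M15 and used DESeq2; versions and the strand setting are not given in the sources used here. The labels and the methods name different library kits. The deposited values are a signal, reads per gene divided by 1 size factor per sample. Division by the value of 1 read gave whole reads for 100% of values (largest deviation 0.00048 of a read), and no column was left unused. The 8 libraries hold 52456804 to 74676721 reads, and low counts carry wider counting error. 

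The main test was limma 3.58.1 (lmFit, eBayes with trend) on log2(normalized count + 1) for 16982 genes with a mean of at least 10, with Benjamini-Hochberg adjustment over all of them at 0.05. Single members were also tested by exact two-sided permutation. Fold changes on this scale understate changes of low genes. The recovered reads went into edgeR 4.0.16 and DESeq2 1.42.0 (R 4.3.3) as alternatives. The scripts were tested on simulated data. Lengths, positions and overlaps came from GENCODE M21 (GRCm38), which holds 22784 of the listed identifiers and lacks 45; similar transcripts came from blastn 2.17.0. Tables, exact tests and plots used pandas 2.3.3, scipy 1.17.1 and matplotlib 3.10.9 with Python 3.11.15 and numpy 2.4.6.

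Groups came from the labels. The alternatives tried were other pseudocounts (0.5, 5), testing without the filter or with a minimum mean of 50, median centring, quantile normalization, eBayes without trend, the replicate block, the sample set as a term, no samples of high Xist, each sample left out, and coding length. The members, lists, tests and alternatives were chosen with earlier results of these data known. Named partners are, for each list, any called gene or else the gene of smallest p in each direction, with Hdac11 always; genes like Hdac2 and like the member of widest range were the 5 nearest by root mean square difference. A further marker is not reported here.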

Additional observations from a re-analysis of the deposited data

Results flagged for a closer look

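Of 20 groups of 4 samples examined (the 10 members in WT and in K187R), 1 held a sample far from the others. Hdac10 was at 1569 normalized counts in K187R replicate 3, where the other K187R samples lay between 1166 and 1209. Chance flags about 1 group in 20.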

How the results depend on the processing

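No member passed the threshold under any of the 21 alternatives run for it, and none of the partner genes did. The count of genes called, 0 in the main test, was 31 with DESeq2 (0 with edgeR), 1 with the sample set as a term, and 0 to 4 with 1 sample left out, the 4 coming without WT replicate 4; the cause was not tested. The log2 fold changes of Hdac1, Hdac2, Hdac3, Hdac6, Hdac8 and Hdac10 kept their sign in all alternatives. Hdac4 turned from -0.0042 to 0.00069 with edgeR, 0.00077 with edgeR and the replicate block, 0.0038 with the sample set and 0.016 with quantile normalization, and ranged from -0.039 to 0.031 with 1 sample left out. Hdac9 turned to -0.047 with the sample set and -0.068 with quantile normalization, and ranged from -0.068 to 0.17 with 1 sample left out. Hdac5 ranged from -0.11 to 0.086 with 1 sample left out, and Hdac7 turned to -0.012 without the 3 samples of high Xist. The causes were not tested. Without WT replicate 4 the lowest adjusted p-value of any member in any alternative was 0.375, for Hdac2. All 10 levels per kilobase moved with the coding length. That was fixed in advance, since the coding length of every member is shorter than its exonic length. Only the order of the members can be compared between the lengths.

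With the replicate number as a block, limma called 0 genes at the adjusted threshold, Hdac2 stayed at -0.075 and its adjusted p-value was 0.669. Deviations of same-numbered samples correlated at 0.59, 0.66, -0.092 and 0.63 across genes for numbers 1 to 4, and 6 of 8 samples were closest to their own number, and number 3 did not deviate together, so that not every number paired its samples and the block was kept as an alternative. With it, genes at an unadjusted limma p under 0.05 rose from 746 to 2046. Depth limits Hdac9 and Hdac11, with 76 to 125 and 35 to 77 reads per sample.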
